A study of Mus musculus with 4 samples.

Results

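The collagen genes are the rows of the count table whose symbol follows the pattern Col, a type number, the letter a and a chain number. The pattern took 44 of the 32285 genes in the table. They were grouped by type number into 9 fibrillar genes (types I, II, III, V and XI), 8 basement membrane genes (types IV, XV and XVIII) and 27 other genes. The classes are set by these numbers alone, and the other genes, Col24a1 and Col27a1 among them, were not sorted by structure. RNA came from GS cells, which are spermatogonia kept in culture and derived from the testes of wild-type mice aged 10 days. There were 4 libraries of 76 bp single reads, 2 from C57BL/6 (B6) and 2 from strain 129, and the comparison asks how the strains differ. The titles of the B6 libraries carry the tag F0, which those of the 129 libraries do not; the sources used here give neither its meaning nor the culture conditions and any feeder cells. Nothing in the labels ties the 2 libraries of a strain to separate cultures or animals, so the p-values below measure the spread between these libraries, which may be technical.

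Collagens are secreted or membrane-bound proteins in which chains from one or several genes wind into a triple helix. Fibrillar collagens build the ropes of connective tissue, and type IV builds the sheet-like network of basement membranes. Further types include some that decorate fibrils, form beaded filaments or short-chain networks, or sit in the cell membrane. In the testis, basement membrane surrounds the seminiferous tubules in which spermatogonia lie, and fibrillar collagens are known mainly as products of the mesenchymal cells around them.

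Collagen mRNA was present in every library. The 44 genes together took 5583.1 and 3738.7 CPM (a gene's reads relative to the TMM-scaled size of its library) in the B6 libraries, replicate 1 before replicate 2, and 5568.1 and 2125.6 CPM in the 129 libraries. Of the 44 genes 41 passed the low-count filter: all 9 fibrillar genes, 7 of 8 basement membrane genes and 25 of 27 others. Col4a3, Col9a1 and Col19a1 did not, and held at most 24 counts in a library. Library totals were 20375086 to 25374801 counts. The defining markers of spermatogonia were detected, with all 14 listed genes above 1 CPM in at least 1 library. They summed to 4275.6 and 4550.6 CPM in B6 and 3116.3 and 4071.9 CPM in 129. In both 129 libraries 10 of the 14 lay below both B6 libraries, beside 29.2% of all genes tested. Another 2 lay above, beside 31.0%. The 15 fibroblast markers were detected as well, with sums of 2882.3 and 2197.8 CPM in B6 and 6187.5 and 2692.2 CPM in 129. The fibronectin gene Fn1 alone made up 1774.9 and 1273.6 CPM of these sums in B6 and 4067.4 and 1666.7 CPM in 129. In these bulk samples fewer cells of a type and less RNA per cell cannot be told apart.

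By the quasi-likelihood test of edgeR, with Benjamini-Hochberg adjustment over all genes, Col2a1 rose in 129, and Col15a1 and Col25a1 fell. These were 3 of the 41 tested collagen genes, 7.32%, beside 2.86% of all genes tested. By direction, 1 collagen gene was higher (2.44%, beside 1.84% of all genes) and 2 were lower (4.88%, beside 1.02%). At an unadjusted p under 0.05 there were 7 higher and 5 lower collagen genes, 17.1% and 12.2% of those tested, beside 15.9% and 12.2% of all genes. DESeq2 called 6 higher and 5 lower collagen genes, beside 9.56% and 5.44% of all genes, and limma-voom called Col2a1 alone, beside 1.54% of all genes. None of the 3 calls held in every setting with 1 library left out, each of which leaves 1 library in a strain. Without B6 replicate 1, B6 replicate 2 or 129 replicate 1 no collagen gene was called by edgeR, beside 0.0%, 0.00595% and 0.0782% of all genes. At an unadjusted p under 0.05 these settings gave 7, 8 and 6 higher and 4, 5 and 12 lower collagen genes of 42, 41 and 42 tested, beside 19.5%, 24.4% and 13.2% of all genes in either direction. Without 129 replicate 2 the edgeR calls were Col2a1, Col11a2, Col5a2 and Col12a1, all higher, beside 4.92% of all genes called and 4.46% called higher.

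**Figure D1:**
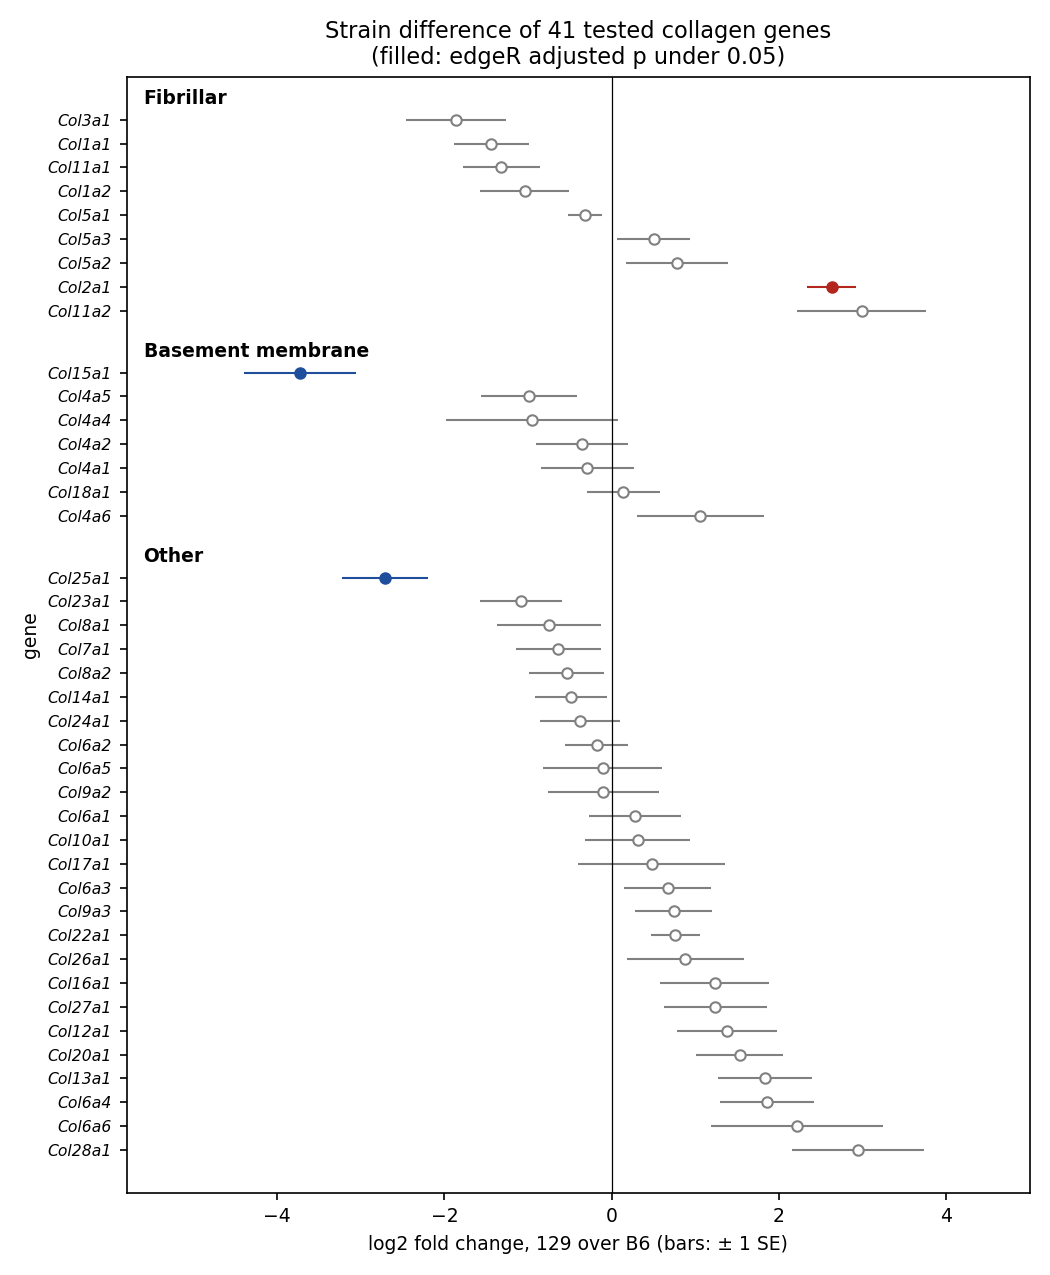
The log2 fold change of 129 over B6 (horizontal axis) with its standard error for each tested collagen gene, by class, with genes called by edgeR filled. Col2a1 stands at 2.63, Col15a1 at -3.73 and Col25a1 at -2.71, and both directions occur in every class.

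Col2a1 encodes the chain of type II collagen, the main fibrillar collagen of cartilage. It lies on chromosome 15 at 97975602 to 98004695, minus strand (mm10). Its level was 12 and 10.5 CPM in the B6 libraries and 58.5 and 81.8 CPM in the 129 libraries. Both 129 libraries lay above both B6 libraries, and the gap exceeded the spread within either strain. The means were 11.3 ± 1.04 CPM in B6 and 70.1 ± 16.5 CPM in 129 (SD, n = 2 each), a 6.22-fold difference (edgeR adjusted p = 0.029, log2 fold change 2.63 with SE 0.29). Without B6 replicate 1, B6 replicate 2 or 129 replicate 1 the edgeR adjusted p was 0.15, 0.093 or 0.083, with log2 fold changes between 2.37 and 2.86 whichever library was left out. The 427 genes of chromosome 15 that averaged 10 CPM or more had a median log2 fold change of 0.46, beside -0.05 on the other autosomes. The part of that shift in the Col2a1 value was not tested.

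Col15a1 encodes type XV collagen, which joins basement membranes to the tissue beneath them. The gene is on chromosome 4 at 47208161 to 47313167, plus strand (mm10). It stood at 8.24 and 4.46 CPM in B6 and at 0.628 and 0.332 CPM in 129, which are 205, 90, 13 and 7 counts. Both 129 libraries lay below both B6 libraries. The means were 6.35 ± 2.67 CPM in B6 and 0.480 ± 0.209 CPM in 129 (SD, n = 2 each), so the gene was 13.2-fold lower in 129 (edgeR adjusted p = 0.047, log2 fold change -3.73 with SE 0.67). The edgeR adjusted p was 0.055 with no filter, 0.052 with a stricter filter and 0.094 to 0.22 with any 1 library left out. An annotated antisense gene shares 14 bp of exon with Col15a1, and whether the counting used strand is not stated in the sources.

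Col25a1 encodes a membrane-spanning collagen known from neurons and muscle. The gene is on chromosome 3 at 130131501 to 130599877, plus strand (mm10). Its level was 9.12 and 16.4 CPM in B6 and 1.98 and 1.90 CPM in 129. The 129 libraries were nearly equal and both lay below B6. Means were 12.8 ± 5.14 CPM in B6 and 1.94 ± 0.0594 CPM in 129 (SD, n = 2 each), 6.58-fold lower in 129 (edgeR adjusted p = 0.049, log2 fold change -2.71 with SE 0.51). The edgeR adjusted p was 0.057 with no filter, 0.053 with a stricter filter and 0.093 to 0.25 with any 1 library left out.

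The 250 bases before a RefSeq start of the 2 genes that fell are shown to let their upstream sequences be compared. They are read 5′ to 3′ on the gene's plus strand from RefSeq on GRCm38.p6, the mm10 assembly, at chr4:47207762-47208011 for Col15a1 and chr3:130180595-130180844 for Col25a1. The Col25a1 start used by RefSeq lies inside the gene's annotated span, downstream of its first annotated base. Capitals mark matches on either strand to 3 short words that are common near gene starts. For the first, known as the TATA box, the letters searched were TATAAA. The second was the CCAAT box, searched by the letters of its name. For the last, known as the GC box and bound by Sp-family factors, the search used the letters GGGCGG.
Col15a1: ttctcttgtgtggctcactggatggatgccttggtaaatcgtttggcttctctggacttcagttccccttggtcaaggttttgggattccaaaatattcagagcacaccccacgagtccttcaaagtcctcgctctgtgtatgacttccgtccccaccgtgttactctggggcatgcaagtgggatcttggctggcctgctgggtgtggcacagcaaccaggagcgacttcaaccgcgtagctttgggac
Col25a1: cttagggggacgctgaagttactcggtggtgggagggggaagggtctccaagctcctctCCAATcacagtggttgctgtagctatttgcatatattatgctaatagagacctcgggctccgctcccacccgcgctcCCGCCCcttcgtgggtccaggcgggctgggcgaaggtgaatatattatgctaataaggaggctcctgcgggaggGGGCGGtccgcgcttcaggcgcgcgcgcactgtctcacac
The Col15a1 stretch had none of these words and a GC content of 53.6%. The Col25a1 stretch had 1 CCAAT box and 2 GC box matches and a GC content of 60.4%. Among 32851 mouse promoters of this length in the table, 12.4% held the TATA box letters, 33.8% those of the CCAAT box and 32.7% those of the GC box. The table holds 38 starts for 35 of the 44 collagen genes, of which 5 held the TATA box, 13 the CCAAT box and 22 the GC box letters. A CCAAT box and a GC box match on opposite strands can share bases. A match describes the letters and no site.

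The type I and III transcripts, the most abundant fibrillar ones in B6, were lower in both 129 libraries than in both B6 libraries, but none of them passed the edgeR test. Types I and III are the main collagens of skin, bone and loose connective tissue. Col1a1, a chain of type I, stood at 1113.0 and 663.9 CPM in B6 and 464.6 and 189.5 CPM in 129 (edgeR adjusted p = 0.11, log2 fold change -1.44 with SE 0.45). The strains did not overlap, and the libraries within 129 differed 2.45-fold. Col1a2, the other type I chain, was at 835.3 and 674.6 CPM in B6 and 570.6 and 161.5 CPM in 129 (edgeR adjusted p = 0.26, log2 fold change -1.04 with SE 0.53). Col3a1, the chain of type III, was at 1356.8 and 641.0 CPM in B6 and 423.2 and 125.7 CPM in 129 (edgeR adjusted p = 0.11, log2 fold change -1.86 with SE 0.60). DESeq2 called Col1a1 and Col3a1 lower (adjusted p = 0.017 and 0.0089). In each of these 3 genes 129 replicate 2 was the lowest library and B6 replicate 1 the highest.

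Type V chains, which start type I fibrils and set their width, did not share one pattern. Col5a1 was at 400.0 and 363.8 CPM in B6 and 350.2 and 263.6 CPM in 129 (edgeR adjusted p = 0.35, log2 fold change -0.32 with SE 0.20), and its libraries were the closest together of the abundant fibrillar genes. Col5a2 was at 244.2 and 166.0 CPM in B6 and 569.4 and 135.6 CPM in 129 (edgeR adjusted p = 0.44, log2 fold change 0.78 with SE 0.61). The 129 libraries of Col5a2 held both its highest and its lowest value. Col5a3 had 38.1 CPM in each B6 library and 78.8 and 29.3 CPM in 129, again on either side of B6. The log2 fold changes of Col5a2 and Col5a3 ran from -0.59 to 1.47 and from -0.38 to 1.05 with 1 library left out.

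The 2 chains of type XI, which type II collagen joins in cartilage fibrils, lay on opposite sides. Col11a1 was at 14.1 and 8.51 CPM in B6 and 5.22 and 3.89 CPM in 129 (edgeR adjusted p = 0.12, log2 fold change -1.32 with SE 0.46). Col11a2 was at 1.21 and 0.792 CPM in B6 and 12.6 and 3.60 CPM in 129 (edgeR adjusted p = 0.071, log2 fold change 2.99 with SE 0.77). The strains did not overlap for either gene. DESeq2 called Col11a1 lower (adjusted p = 0.033) and Col11a2 higher (adjusted p = 5.9e-04). Col11a2 falls below the level set for naming and is described because its values were seen.

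**Figure D2:**
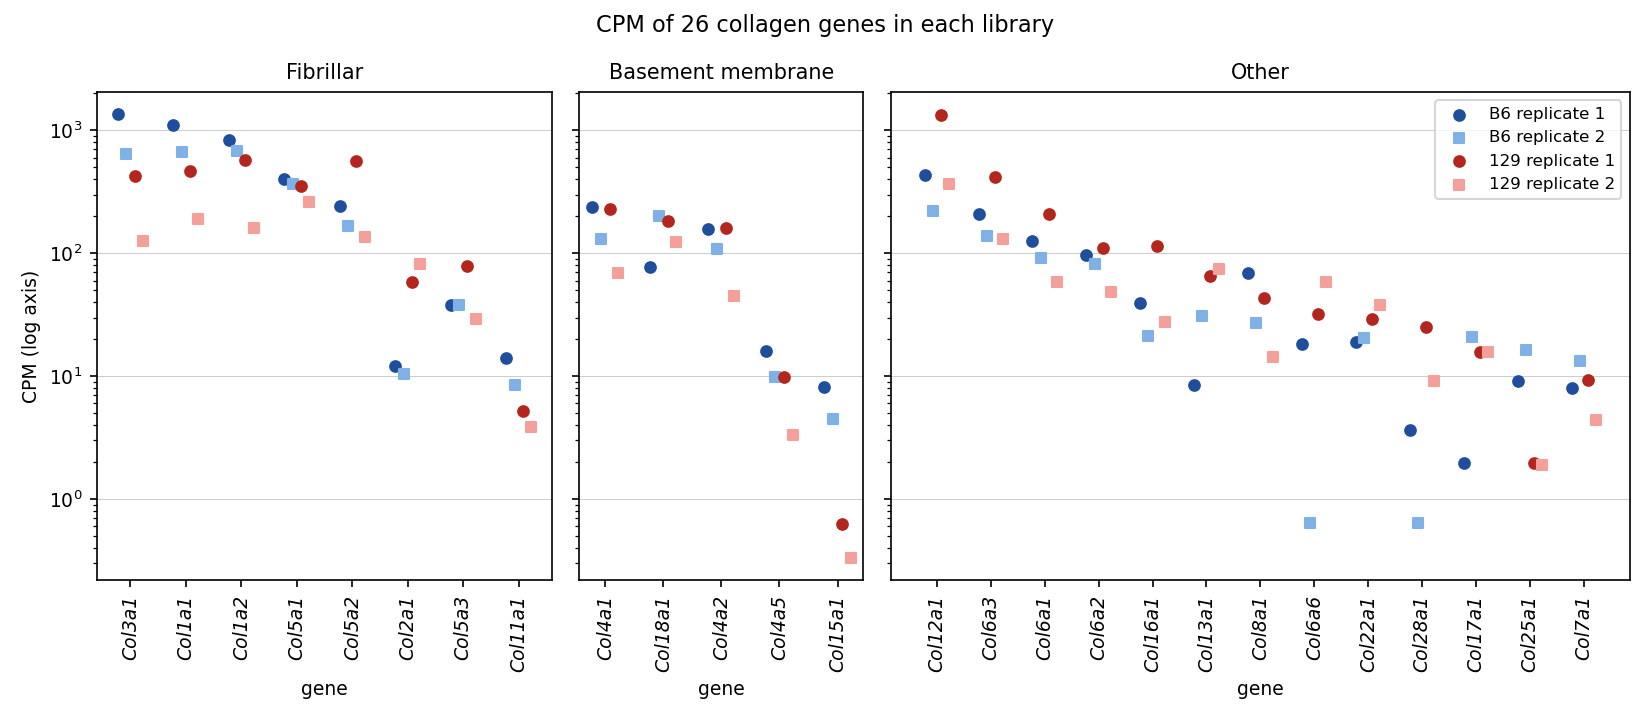
CPM on a log axis in each of the 4 libraries for the named collagen genes, by class. In the fibrillar class, Col1a1, Col1a2, Col3a1, Col5a1 and Col11a1 lie lower in both 129 libraries, Col2a1 lies higher, and Col5a2 and Col5a3 have 129 libraries on either side of B6.

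Counted over the class, 7 of 9 fibrillar genes had strains that did not overlap, 5 with 129 below and 2 with 129 above. Over the 41 tested collagen genes the count was 21, with 12 below and 9 above (51.2%), beside 60.1% of all genes tested, of which 29.2% lay below and 31.0% above. The median log2 fold change was -0.32 for the fibrillar genes, -0.36 for the basement membrane genes and 0.48 for the others, beside 0.02 for all genes tested. Fibrillar genes summed to 4014.7 and 2567.2 CPM in B6 and 2533.1 and 994.5 CPM in 129. The higher 129 library was close to the lower B6 library, and the sums do not separate the strains by more than their spread.

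Basement membrane collagens other than Col15a1 did not pass the test. Col4a1 and Col4a2 encode the chains of the common type IV network, and lie head to head on chromosome 8. Col4a1 was at 238.1 and 130.1 CPM in B6 and 231.1 and 69.8 CPM in 129 (edgeR adjusted p = 0.77, log2 fold change -0.29 with SE 0.56). Col4a2 was at 156.6 and 108.1 CPM in B6 and 161.0 and 44.8 CPM in 129 (edgeR adjusted p = 0.70, log2 fold change -0.36 with SE 0.55). For both genes the strains overlapped, and 129 replicate 1 was near B6 replicate 1. Col4a5, on the X chromosome, encodes a chain of a more restricted type IV network, and was at 16 and 9.85 CPM in B6 and 9.76 and 3.32 CPM in 129 (edgeR adjusted p = 0.30, log2 fold change -0.99 with SE 0.57). Col18a1, whose protein releases endostatin, was at 76.9 and 200.3 CPM in B6 and 181.7 and 123.5 CPM in 129 (edgeR adjusted p = 0.86, log2 fold change 0.14 with SE 0.44). Its lowest and highest values were both in B6. Col4a4 and Col4a6 stayed at or under 1.88 CPM in every library.

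Among the other collagens, no gene beyond Col25a1 passed the edgeR test, and the most abundant ones had widely separated 129 libraries. Col12a1 encodes a collagen that coats fibrils, and was at 433.8 and 220.3 CPM in B6 and 1331.6 and 369.3 CPM in 129 (edgeR adjusted p = 0.20, log2 fold change 1.38 with SE 0.60). Its 129 replicate 2 lay inside the B6 range. Col6a1, Col6a2 and Col6a3 encode the chains of type VI, which forms beaded microfilaments around cells. Col6a1 was at 126.8 and 92.4 CPM in B6 and 208.8 and 58.1 CPM in 129, and Col6a3 at 207.5 and 138.1 CPM in B6 and 419.4 and 131.4 CPM in 129. For Col6a2 the values were 97.4 and 82.1 CPM in B6 and 110.3 and 48.6 CPM in 129. All 3 had 129 values on both sides of B6, with log2 fold changes of 0.28, 0.67 and -0.18 (edgeR adjusted p = 0.77, 0.44 and 0.79). Col16a1, a fibril-associated collagen, was at 39.1 and 21.4 CPM in B6 and 114.8 and 27.5 CPM in 129, where replicate 1 lay above and replicate 2 inside the B6 range (edgeR adjusted p = 0.27).

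Of the 25 tested genes of this class 7 were higher in both 129 libraries than in both B6 libraries without passing the edgeR test, 28% beside 31.0% of all genes. Another 5 were lower in both 129 libraries (20%, beside 29.2% of all genes), Col25a1 among them. Col13a1 encodes a membrane-spanning collagen known at neuromuscular junctions, and was at 8.44 and 30.8 CPM in B6 and 65.0 and 74.0 CPM in 129 (edgeR adjusted p = 0.10, DESeq2 adjusted p = 0.0091, log2 fold change 1.83 with SE 0.56). Col28a1, a beaded-filament collagen, was at 3.62 and 0.644 CPM in B6 and 25.1 and 9.20 CPM in 129 (edgeR adjusted p = 0.078, DESeq2 adjusted p = 0.0015, log2 fold change 2.95 with SE 0.79). Col22a1, a collagen of tissue junctions, was at 19.1 and 20.6 CPM in B6 and 29.2 and 37.8 CPM in 129 (edgeR adjusted p = 0.15, log2 fold change 0.76 with SE 0.29). Like Col2a1, it lies on chromosome 15, whose genes averaging 10 CPM or more had a median log2 fold change of 0.46. The other autosomes had -0.05, and the part of that shift in the Col22a1 value was not tested. Within B6, Col22a1 varied little and Col28a1 and Col13a1 varied several-fold. Col6a6, an alternative type VI chain, was at 18.4 and 0.644 CPM in B6 and 32.3 and 58.4 CPM in 129, and its B6 libraries differed 28.7-fold (edgeR adjusted p = 0.22, log2 fold change 2.22 with SE 1.03).

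The remaining named genes overlapped between strains. Col17a1, a collagen of hemidesmosomes, was at 1.97 and 20.9 CPM in B6 and 15.8 and 15.6 CPM in 129, so that its B6 libraries enclosed the 129 values. Col7a1, the anchoring fibril collagen, was at 8.03 and 13.3 CPM in B6 and 9.23 and 4.41 CPM in 129. Col8a1, a short-chain network collagen, was at 69.5 and 27.2 CPM in B6 and 43.1 and 14.3 CPM in 129. Their log2 fold changes were 0.48, -0.64 and -0.75 (edgeR adjusted p = 0.76, 0.45 and 0.47). The other 18 collagen genes, Col11a2 included, fell under a mean of 10 CPM in both strains, and the highest single library value among them was the 12.6 CPM of Col11a2. Exons of 13 collagen genes overlap those of another annotated gene by 14 to 563 bp. For Col3a1, Col7a1 and Col20a1 that gene is on the same strand. For the other 10 it is on the opposite strand, where the overlap can alter counts only if strand was not used. How reads on 2 genes were counted is not stated in the sources.

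The makeup of the collagen transcripts did not overlap between the strains for types I and III, while the summed collagen CPM did. Levels of different genes are compared here as CPM per kilobase of a gene's merged exons. On that scale Col1a1 ranked highest in B6, with a mean of 135.4, ahead of Col3a1 at 101.8, Col1a2 at 60.8 and Col5a1 at 45.0 CPM per kilobase. In 129 the leading genes were Col12a1 at 55.8, Col1a1 at 49.8, Col5a2 at 36.8 and Col5a1 at 36.2 CPM per kilobase. The B6 libraries of Col1a1 were at 169.6 and 101.2 and those of Col3a1 at 138.2 and 65.3 CPM per kilobase, so the order of these neighbours does not go beyond their spread. Nor does the order of the 129 leaders, since Col12a1 had 87.4 and 24.2 and Col1a1 70.8 and 28.9 CPM per kilobase there.

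As a share of all collagen CPM per kilobase, types I and III together made up 58.5% and 50.5% in the B6 libraries and 26.4% and 22.2% in the 129 libraries. The strains were far apart on this share, and the libraries within a strain were close. Type XII took 4.45% and 3.31% in B6 and 14.4% and 9.85% in 129. Type VI took 9.42% and 9.77% in B6 and 16.5% and 15.1% in 129. The shares of a library are parts of one total, so a lower share of types I and III raises the rest. In CPM, Col6a1, Col6a2 and Col6a3 lay above both B6 libraries in 129 replicate 1. In 129 replicate 2 they lay below both, at 58.1, 48.6 and 131.4 CPM. Types II and XI together took 0.403% and 0.44% in B6 and 1.41% and 3.93% in 129. The type IV share overlapped between strains, at 9.07% and 8.14% in B6 and 9.42% and 6.8% in 129. No test was run on these shares, which were examined after the gene values were known, and a two-sided exact permutation test of 2 against 2 libraries cannot go below p = 0.333.

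**Figure D3:**
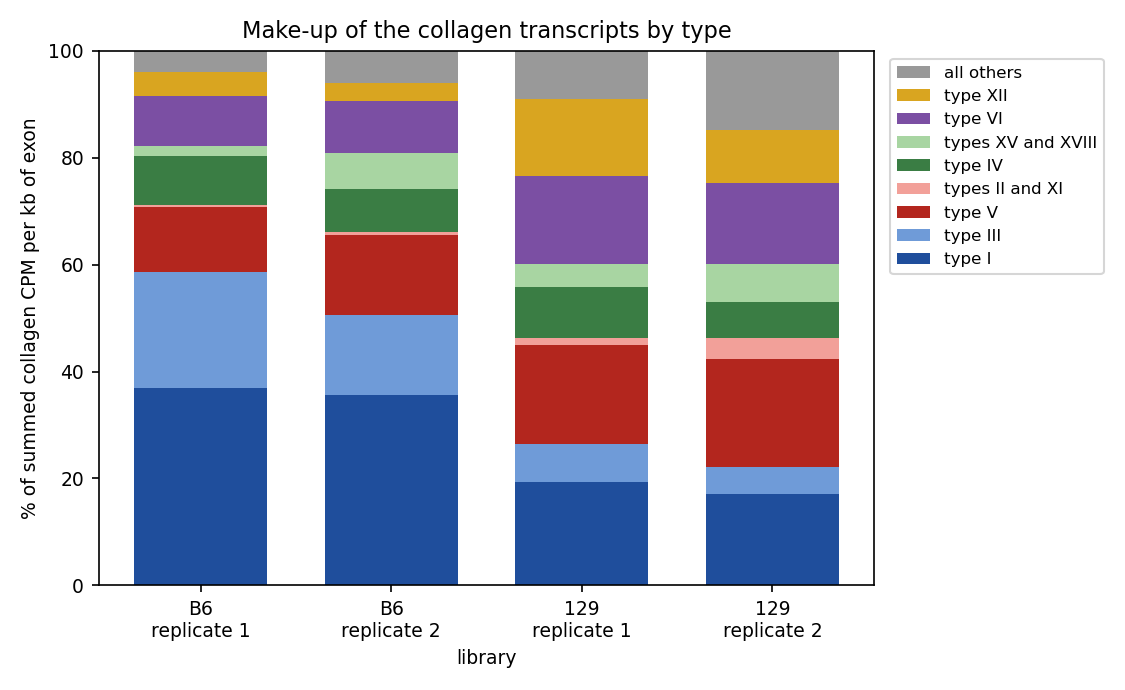
The percentage of summed collagen CPM per kilobase contributed by each collagen family in each of the 4 libraries, as stacked bars from 0. Types I and III fill 58.5% and 50.5% of the B6 bars and 26.4% and 22.2% of the 129 bars.

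Ratios between genes within a library show which pairs kept their proportion. The ratio of Col4a1 to Col4a2 per kilobase was 1.35 and 1.07 in B6 and 1.27 and 1.38 in 129. That of Col1a1 to Col1a2 was 2.52 and 1.86 in B6 and 1.54 and 2.22 in 129. Both ratios overlapped between strains while their genes varied several-fold among libraries. Among type VI chains the ratio of Col6a1 to Col6a2 was 2.47 and 2.14 in B6 and 3.6 and 2.27 in 129, which overlapped. That of Col6a3 to Col6a1 was 0.599 and 0.547 in B6 and 0.735 and 0.828 in 129, which did not overlap but stayed within a narrow range. The chains of types V and XI varied more. For type V the ratio of Col5a2 to Col5a1 was 0.54 and 0.404 in B6 and 1.44 and 0.455 in 129, set apart by 129 replicate 1. For type XI the ratio of Col11a2 to Col11a1 was 0.158 and 0.172 in B6 and 4.46 and 1.72 in 129, with no overlap. Col3a1 and Col5a2 are neighbours on chromosome 1, read on opposite strands with 24.6 kb between them. The ratio of Col5a2 to Col3a1 was 0.184 and 0.265 in B6 and 1.38 and 1.1 in 129, so that the strains did not overlap. The ratio of Col12a1 to Col1a1 was 0.168 and 0.143 in B6 and 1.24 and 0.84 in 129. Pairs from different proteins were chosen after the values were seen, and Col11a2 is described because its values were seen. All the ratios are descriptions.

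**Figure D4:**
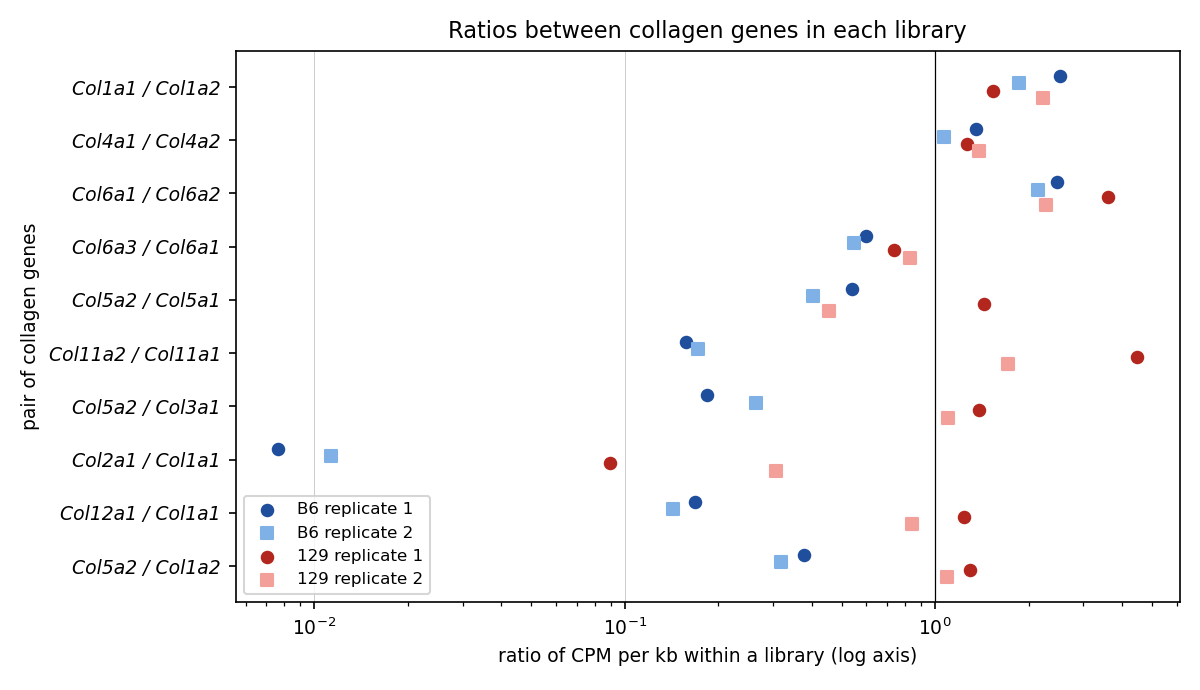
Within-library ratios of CPM per kilobase for pairs of collagen genes, on a log axis, with 1 point per library. Ratios of Col4a1 to Col4a2 stay between 1.07 and 1.38, while Col5a2 to Col3a1 runs from 0.184 to 1.38 with both 129 libraries above B6.

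The 2 libraries of strain 129 differed from each other in collagen level. In 129, 20 of 41 tested collagen genes (48.8%) were at least 2-fold higher in replicate 1 than in replicate 2, beside 11.7% of all genes. In B6 the count was 8 of 41 (19.5%), beside 8.87% of all genes. Within 129, log2 of replicate 1 over replicate 2 had a median of 1.43 for fibrillar, 1.53 for basement membrane and 0.06 for other collagen genes, and that of all genes was 0. The summed fibroblast markers showed a ratio of 2.3 between the 129 replicates and 1.31 between the B6 replicates, and summed collagen CPM ratios of 2.62 and 1.49. Most of the fibroblast sum was Fn1 in every library. The part of fibroblast RNA in the collagen values was not tested.

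Marker genes of cell types were read beside the collagen genes. Of the 15 fibroblast markers edgeR called Pdgfra and Fbln1 higher and Dpt lower in 129, beside 1.84% and 1.02% of all genes. DESeq2 called 7 higher and 4 lower, beside 9.56% and 5.44% of all genes, and limma-voom called none, beside 1.54%. The median log2 fold change of the 15 markers was 0.91, beside 0.02 for all genes tested, and 8 of them lay above 0. Of the summed fibroblast values of 129, 1 lay above and 1 within the B6 range, while Col1a1, Col1a2 and Col3a1 lay below B6 in both. The 10 Sertoli cell markers summed to 20.8 and 24.1 CPM in B6 and 222.2 and 131.4 CPM in 129. Clu, the only one of 9 tested that edgeR called, was higher and made up 193.2 and 90.5 CPM in 129. Amh, Inha, Cldn11 and Fshr were under 1 CPM in every library. The 10 endothelial markers summed to 54.5 and 91.9 CPM in B6 and 283.1 and 191.7 CPM in 129. Tie1, Emcn and Esam were under 1 CPM in every library. Of 7 tested, edgeR called 2 higher, beside 1.84% of all genes. These were Cdh5, at 0.723 and 2.62 CPM in B6 and 87.9 and 27.0 CPM in 129, and Eng. Eng was at 4.74 and 5.0 CPM in B6 and 95.9 and 32.6 CPM in 129. The other 5 were not called, Pecam1, Tek and Vwf among them. The 8 peritubular muscle markers summed to 95.2 and 37.9 CPM in B6 and 105.6 and 49.5 CPM in 129. EdgeR called 1 of 7 tested, Des, higher. Limma-voom called 1 Sertoli cell, 1 peritubular muscle and no endothelial marker, beside 1.54% of all genes. The 7 macrophage markers summed to 9.81 to 26.9 CPM and the 7 Leydig cell markers to 4.3 to 9.24 CPM, with no edgeR call. The 14 spermatogonia markers had a median log2 fold change of -0.46, with 3 above 0. EdgeR called Etv5 of that list higher and Uchl1 lower, beside 1.84% and 1.02% of all genes. The part of any of these cells in the collagen values was not tested.

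Genes whose products fold, bind, cut or link collagen, or inhibit its degradation, were read from 7 lists. EdgeR called 6 of their 69 tested genes, 3 higher and 3 lower, beside 2.86% of all genes. It called 0, 1 and 0 of them without B6 replicate 1, B6 replicate 2 and 129 replicate 1, beside 0.0%, 0.00595% and 0.0782% of all genes, and 23 of 70 without 129 replicate 2, beside 4.92%. Among receptors 2 of 8 rose and 1 fell. Ddr2, a receptor kinase for fibrillar collagen, was at 64.7 and 54.2 CPM in B6 and 306.9 and 227.3 CPM in 129 (edgeR adjusted p = 0.029, log2 fold change 2.17 with SE 0.23). Its relative Ddr1, a receptor for fibrillar and basement membrane collagen, was at 63.5 and 102.7 CPM in B6 and 298.6 and 332.9 CPM in 129 (edgeR adjusted p = 0.032, log2 fold change 1.93 with SE 0.26). Itga11, an integrin chain that binds type I collagen, was at 8.20 and 6.44 CPM in B6 and 0.483 and 0.237 CPM in 129 (edgeR adjusted p = 0.033, log2 fold change -4.33 with SE 0.62). In all 3 receptors the strains were well apart, with Itga11 lower and the Ddr genes higher in 129. Of the receptors DESeq2 called 2 higher and 2 lower and limma-voom 3, beside 9.56%, 5.44% and 1.54% of all genes.

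Of the 7 cross-linking genes tested, 1 fell: Loxl2, a lysyl oxidase that also acts on type IV collagen, at 229.0 and 73.5 CPM in B6 and 1.64 and 1.52 CPM in 129 (edgeR adjusted p = 0.029, log2 fold change -6.58 with SE 0.68). EdgeR called 1.84% of all genes higher and 1.02% lower, DESeq2 9.56% and 5.44%, and limma-voom 1.54% in either direction. In the cross-linking list DESeq2 called 3 higher and 1 lower, and limma-voom none. The median log2 fold change over that list was 1.02, opposite in sign to Loxl2. Of the 8 degradation genes 1 rose, Mmp13, an interstitial collagenase, at 30.3 and 21.3 CPM in B6 and 929.4 and 270.3 CPM in 129 (edgeR adjusted p = 0.033, log2 fold change 4.54 with SE 0.62). In the degradation list DESeq2 called 5 higher and 1 lower, and limma-voom none. The median over the degradation list was 1.58, the highest of the 7 lists. That list also holds Timp1 and Timp2, which encode metalloproteinase inhibitors, at log2 fold changes of 0.06 and 1.7. Its median is therefore not that of degrading enzymes alone. Of the 11 basement membrane partners 1 fell, the laminin chain Lama4. It was at 60.9 and 43.8 CPM in B6 and 10.9 and 7.87 CPM in 129. Its log2 fold change was -2.48 with SE 0.33 (edgeR adjusted p = 0.03). Among the basement membrane partners DESeq2 called 1 higher and 1 lower, and limma-voom called 1.

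The genes that fold and trim procollagen gave no edgeR call, beside 2.86% of all genes. Among all genes tested, 15.9% were higher and 12.2% lower in 129 at an unadjusted p under 0.05. DESeq2 called 9.56% of all genes higher and 5.44% lower, and limma-voom called 1.54% in either direction. Of the 18 folding and hydroxylation genes tested 3 were at an unadjusted p under 0.05, DESeq2 called 2 higher and limma-voom none. P4hb, a subunit of prolyl hydroxylase and a disulfide isomerase, was at 1027.2 and 1045.0 CPM in B6 and 928.8 and 872.4 CPM in 129 (edgeR adjusted p = 0.44). Ppib, the cyclophilin that aids collagen folding, was at 197.8 and 268.1 CPM in B6 and 257.6 and 276.6 CPM in 129 (edgeR adjusted p = 0.57). Of the 8 procollagen cleavage genes 3 were at an unadjusted p under 0.05, DESeq2 called 2 higher and 1 lower and limma-voom none. Pcolce, an enhancer of procollagen C-proteinase, was at 78.9 and 55.6 CPM in B6 and 527.9 and 167.8 CPM in 129 (edgeR adjusted p = 0.06, log2 fold change 2.37). Bmp1, that proteinase, was at 48.4 and 46.8 CPM in B6 and 184.8 and 76.4 CPM in 129 (edgeR adjusted p = 0.084, log2 fold change 1.45). The 9 fibril partners likewise gave no edgeR call, with 4 at an unadjusted p under 0.05. DESeq2 called 3 of them higher and 1 lower, and limma-voom none. Dcn, Lum, Fn1 and Postn of this list are also among the fibroblast markers, so the 2 lists are not separate readings. Fn1, the matrix glycoprotein fibronectin, was at 1774.9 and 1273.6 CPM in B6 and 4067.4 and 1666.7 CPM in 129, and Bgn, the proteoglycan biglycan, at 287.1 and 366.5 CPM in B6 and 1769.6 and 510.6 CPM in 129.

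**Figure D5:**
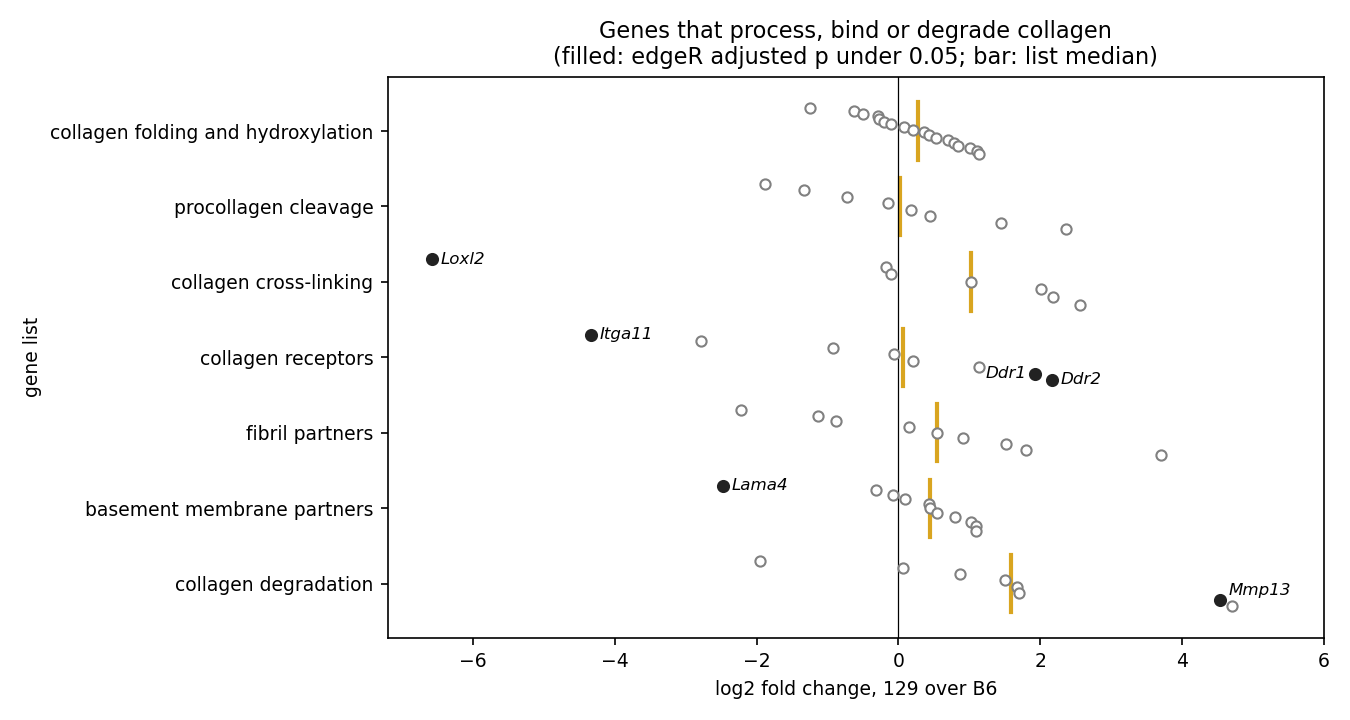
The log2 fold change of 129 over B6 for each tested gene of the 7 lists of collagen-related genes, with edgeR calls filled and named and a bar at each list's median. Loxl2, Itga11 and Lama4 lie to the left of 0 and Ddr1, Ddr2 and Mmp13 to the right, and list medians run from 0.02 to 1.58.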

How the data were processed

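RNA-seq libraries of 4 GS cell samples were analysed from the counts of reads per gene that the authors deposited as raw values. The submitters' processing notes name HISAT2 2.2.1, HTSeq 0.13.5, DESeq2 1.30.1, cutadapt 3.4 and bcl2fastq 2.20 and the build mm10. The annotation release and the strand setting were not given in the sources used here. Reads from 129 were aligned to a reference of another strain, which can lower 129 counts at strain variants. Gene positions came from GENCODE M21, which holds 32235 of 32285 identifiers (99.85%) and all 44 collagen genes.

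edgeR 4.0.16 in R 4.3.3 was run on the whole table with filterByExpr (16005 genes kept), its robust quasi-likelihood test and scaling by TMM (0.982 to 1.036), on a model of strain alone. Benjamini-Hochberg adjustment covered all genes tested, and an adjusted p under 0.05 was a call. CPM are scaled by TMM. Libraries of a strain were not duplicates (chi-square per gene 58.6 in B6 and 75 in 129). Collagen genes called by edgeR or with a mean of at least 10 CPM in either strain were named, 26 in all; from each list of other genes, the called members or the 2 most abundant. The collagen genes and the lists were chosen with earlier results of these data known. The alternatives tried were each library left out, a replicate block, DESeq2 1.42.0, limma-voom (limma 3.58.1), no filter, a stricter filter (at least 1 CPM in 2 libraries) and scaling by upper quartile or by DESeq2 size factors. The legacy form of the edgeR test and the length of the longest coding transcript in place of merged exons were chosen after seeing the data. The fits were tested on simulated data.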

Additional observations from a re-analysis of the deposited data

How the results depend on the processing

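Beside 1 collagen gene higher and 2 lower, DESeq2 called 6 and 5, the replicate block 3 and 4, and 0 were lower with no filter, the stricter filter or limma-voom. With 1 library left out 0 to 4 were higher and 0 lower. Over all genes, 294 were higher and 163 lower. Higher calls were 697 with upper-quartile factors, 165 with no filter, 183 with the stricter filter, 1610 with DESeq2, 149 with limma-voom, 623 with the replicate block and 0 to 750 with 1 library left out. Lower calls were 324 with upper-quartile factors, 95 with no filter, 916 with DESeq2, 97 with limma-voom and 0 to 77 with 1 library left out. The cause was not tested.

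The block used the replicate numbers of the titles, which name no shared animal or batch; same-numbered libraries deviated with a correlation of -0.0141. With the block Col2a1, Col11a2 and Col28a1 were called higher and Col1a1, Col3a1, Col15a1 and Col25a1 lower, beside 5.27% of all genes.

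With 1 library left out, the median log2 fold change ran from -0.59 to -0.12 for fibrillar, -1.39 to 0.28 for basement membrane and 0.11 to 0.70 for other collagen genes. Directions turned for Col4a1 (-1.39 to 0.33), Col4a2 (-1.56 to 0.28), Col5a2 (-0.59 to 1.47), Col5a3 (-0.38 to 1.05), Col6a1 (-0.91 to 0.93), Col6a2 (-0.88 to 0.30), Col6a3 (-0.39 to 1.28), Col8a1 (-1.75 to 0.07), Col16a1 (-0.14 to 1.92), Col17a1 (-0.42 to 2.95) and Col18a1 (-0.40 to 0.95). With the length of the longest coding transcript, types I and III made up 64.7% and 57.5% in B6 and 31.9% and 26.1% in 129. Col15a1 in 129, at 13 and 7 counts, and the untested genes, at no more than 24 counts in a library, are set by few reads. So are Col6a6 and Col28a1 in B6 replicate 2, at 13 counts each, and Col11a2 in B6, at 30 and 16 counts.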
